A study of Mus musculus with 6 samples.

Results

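Transcripts of 7 genes that handle itaconate, succinate and related dicarboxylates were examined in mouse bone marrow-derived macrophages, out of 56691 genes in the deposited table. The genes are Slc13a3, Acod1, Slc25a1, Slc25a10, Sucnr1, Sdha and Sdhb, found by their symbols, and each symbol matched a single row. They were chosen by their pathway and on the contact against transwell values of these same libraries, so that contrast is given for them as a description, with no test. The macrophages were induced from bone marrow with M-CSF, cultured with the cancer cell line mEC25 and then sorted for RNA sequencing. In 3 libraries the macrophages had grown in contact with mEC25 (contact), and in 3 libraries they had grown with it but without contact (transwell). The labels give no strain, age, culture time, ratio of cells or sorting gate. Nothing states that the replicates of a group are separate cultures or separate mice. The p-values therefore reflect only how far these libraries differ from each other, which may be technical.

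Slc13a3 encodes a sodium-coupled carrier of the plasma membrane that brings succinate and other dicarboxylates into the cell, and it is best known from kidney. Acod1 encodes the mitochondrial enzyme that makes itaconate from cis-aconitate, an intermediate of the tricarboxylic acid (TCA) cycle, in macrophages activated through Toll-like or interferon receptors. Itaconate is a competitive inhibitor of succinate dehydrogenase, the complex that oxidises succinate to fumarate and passes the electrons to the respiratory chain, so itaconate and succinate are linked in activated macrophages. Sdha encodes its flavoprotein subunit and Sdhb its iron-sulfur subunit. Slc25a1 and Slc25a10 encode carriers of the inner mitochondrial membrane, for citrate and for dicarboxylates such as succinate and malate. Sucnr1 encodes a G protein-coupled receptor for succinate outside the cell.

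The sequences ahead of the start sites of Slc13a3, Acod1 and Slc25a1 are shown because these genes had the lowest, the smallest and the highest fitted difference between the groups. They come from RefSeq (GRCm38.p6) and end where the earlier of the RefSeq and GENCODE M21 transcripts begins. Capitals mark the letters TGACNNNGC, the core of the antioxidant response element, and GGGCGG, a GC box, on either strand. Slc13a3 is on the minus strand (chr2:165473231-165473447), Acod1 on the plus strand (chr14:103046762-103046976) and Slc25a1 on the minus strand (chr16:17928220-17928469).
Slc13a3: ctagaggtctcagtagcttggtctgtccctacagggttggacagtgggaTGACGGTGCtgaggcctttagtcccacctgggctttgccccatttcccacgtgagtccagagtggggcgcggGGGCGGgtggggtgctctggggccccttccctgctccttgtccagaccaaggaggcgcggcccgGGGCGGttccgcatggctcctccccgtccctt
Acod1: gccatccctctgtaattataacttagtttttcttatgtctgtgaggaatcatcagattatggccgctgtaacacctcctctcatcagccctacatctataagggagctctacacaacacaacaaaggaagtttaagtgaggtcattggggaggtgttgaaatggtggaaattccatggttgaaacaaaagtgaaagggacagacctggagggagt
Slc25a1: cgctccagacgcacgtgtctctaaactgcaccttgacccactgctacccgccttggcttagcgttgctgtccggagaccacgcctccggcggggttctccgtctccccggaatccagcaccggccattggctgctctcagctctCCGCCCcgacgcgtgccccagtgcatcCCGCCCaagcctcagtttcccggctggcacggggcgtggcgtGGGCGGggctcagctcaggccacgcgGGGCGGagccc

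All 7 genes had a RefSeq promoter window, which reaches 250 bases before and 50 bases after the start site. The Slc13a3 window held 1 antioxidant response element core and 2 GC boxes. Of 32851 windows, 12.4% held at least 1 such core and 35.7% at least 1 GC box. GC boxes were also found in the windows of Slc25a1 (4), Sdhb (3) and Slc25a10 (2). The windows of Acod1, Sdha and Sucnr1 held neither motif. The core of the interferon-stimulated response element, GAAANNGAAA, was in 3.44% of all windows and in 0 of the 7. No matches overlapped. The G and C content was 69.3% for Slc13a3 and 69.3% for Slc25a1, 47% for Acod1 and 40.7% for Sucnr1, against a median of 52.7% over all windows.

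Libraries held between 18173192 and 22563835 counts. All 10 macrophage markers checked were found in both groups, with summed levels of 14490 to 16430 FPKM (fragments per kilobase of exon, scaled to the library total, as deposited) in contact and 16020 to 17090 FPKM in transwell libraries. Most of that sum was Lyz2. By edgeR's test across all genes, in which 37.5% of tested genes passed an adjusted p of 0.05 (called), the list went both ways, with 3 of 10 called higher in contact (Cd14 among them, 1343 ± 30 FPKM in contact and 441.8 ± 15.6 FPKM in transwell libraries) and 5 called lower (Adgre1 among them, 577.8 ± 57.1 FPKM in contact and 1228 ± 83.7 FPKM in transwell libraries). All 16 epithelial markers had a higher mean in contact, with sums of 938.7 to 1657 FPKM in contact and 4.55 to 5.14 FPKM in transwell libraries. Cldn4 had no count in transwell libraries, and every other epithelial marker had at least a count in both groups. Their share of all counts was 0.269 ± 0.0817% in the contact group and 0.000905% in the transwell group (mean, n = 3 each, with the SD for contact). The 8 fibroblast markers summed to 10.5 to 24.9 FPKM in contact and 3.54 to 8.03 FPKM in transwell libraries. All 8 fibroblast means were higher in contact, with 4 of 6 tested markers called higher and none lower. The 8 neutrophil markers summed to 719.4 to 1036 FPKM in contact and 464.2 to 1077 FPKM in transwell libraries. S100a8 and S100a9 made up most of the neutrophil sum and were not called, while 7 of the 8 means were higher in contact and 4 of 7 tested markers were called higher. Those 4 were Elane (29.3 ± 7.3 FPKM in contact and 3.92 ± 1.87 FPKM in transwell libraries), Mpo, Retnlg and Cxcr2, and none was called lower. The 5 endothelial markers summed to 11.7 to 13.9 FPKM in contact and 5.78 to 6.62 FPKM in transwell libraries, and the 7 T and B cell markers to 4.52 to 6.25 FPKM and 2.14 to 2.41 FPKM in the same order. Most of the endothelial sum was Pecam1, at 11.8 ± 1.02 FPKM in contact and 5.9 ± 0.327 FPKM in transwell libraries. Most of the T and B cell sum was Cd4, at 4.72 ± 1.075 FPKM and 1.76 ± 0.15 FPKM in the same order. All 3 tested endothelial markers and the 1 tested T and B cell marker, Cd4, were called higher in contact. Markers of kidney tubule, where Slc13a3 is also expressed, reached at most 0.03 FPKM as a sum of 5 in contact libraries and were listed at 0 FPKM in transwell libraries. The part of cells other than macrophages in the differences between the groups was not tested.

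Slc13a3 (ENSMUSG00000018459, chromosome 2, 165405028 to 165473230 on GRCm38, minus strand, protein-coding) stood at 5.57, 5.13 and 5.21 FPKM in contact libraries, against 67.4, 75.9 and 59.76 FPKM in transwell libraries. The groups lay far apart, and the contact libraries differed from each other by less than 0.5 FPKM. The means were 5.3 ± 0.234 FPKM in contact and 67.7 ± 8.07 FPKM in transwell libraries (SD, n = 3 each), a level 12.8-fold lower in contact. The fitted log2 difference, contact minus transwell, was -3.79 ± 0.10 (standard error, SE, from edgeR with TMM scaling), from 1817 counts in contact and 19622 counts in transwell libraries. Of 7266 tested genes with at least 5 FPKM in some library, 1 had a lower fitted difference, and without that limit on level Slc13a3 was at place 5 from the lowest of all tested genes. By mean level Slc13a3 was at place 6517 of all genes in contact and at place 725 in transwell libraries. In bulk RNA, fewer cells of a type and less RNA per cell cannot be told apart. The part that the epithelial RNA of the contact libraries plays in this difference was not tested, and RNA from mEC25 by itself was not analysed here.

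Other carriers of the SLC13 family were near the floor in every library. Slc13a2, a renal and intestinal dicarboxylate carrier, stood at 0.13 ± 0.0608 FPKM in contact and 0.18 ± 0.0529 FPKM in transwell libraries. Slc13a5, a citrate carrier, stood at 0.0367 ± 0.0231 FPKM in contact and 0.00667 ± 0.00577 FPKM in transwell libraries. Slc13a1 and Slc13a4, which carry sulfate, had 0 and 2 counts in contact libraries and 1 and 0 counts in transwell libraries. None of these 4 passed the filter on low counts.

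**Figure D1:**
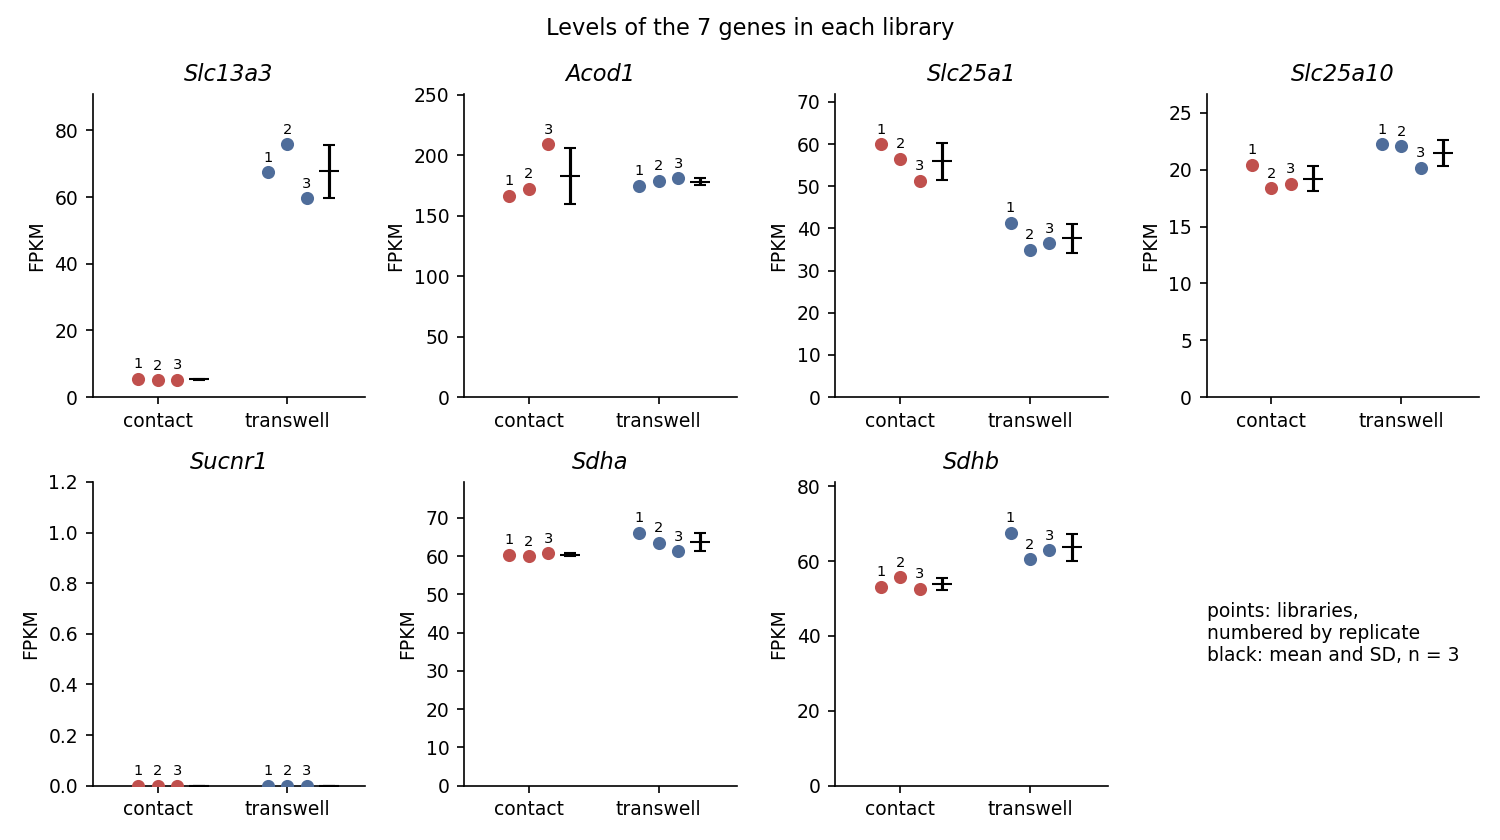
Deposited FPKM (vertical axes, starting at 0) of the 7 genes in the 3 contact libraries (left, red) and the 3 transwell libraries (right, blue), 1 panel per gene, with replicate numbers at the points and the mean and SD in black. Slc13a3 lies between 5.13 and 5.57 FPKM in contact and between 59.76 and 75.9 FPKM in transwell libraries, Acod1 overlaps between the groups, and Sucnr1 is at 0 in all 6 libraries.

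Acod1 (ENSMUSG00000022126, chromosome 14, 103046977 to 103056573 on GRCm38, plus strand) was expressed at a high level under both conditions. It stood at 166.5, 172.28 and 209.2 FPKM in contact libraries, against 174.72, 178.94 and 180.83 FPKM in transwell libraries. The groups overlapped, with contact replicate 3 above all other libraries and contact replicates 1 and 2 below them. The means were 183 ± 23.2 FPKM in contact and 178 ± 3.13 FPKM in transwell libraries (SD, n = 3 each). The fitted log2 difference was -0.08 ± 0.09 (SE), and it was -0.19 without contact replicate 3 and 0.04 when libraries were scaled by their totals alone, so its sign was not fixed by these data. Acod1 was at place 249 of all genes by level in contact and at place 252 in transwell libraries. Acod1 exceeded Slc13a3 by a ratio of FPKM of 34.5 ± 5.2 in contact and 2.66 ± 0.339 in transwell libraries.

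The mitochondrial carriers differed in opposite directions. Slc25a1 (ENSMUSG00000003528, chromosome 16, 17925223 to 17928219, minus strand), the citrate carrier gene, stood at 59.99, 56.55 and 51.29 FPKM in contact libraries, against 41.4, 34.94 and 36.51 FPKM in transwell libraries. All 3 contact libraries were above all 3 transwell libraries, the level was 1.49-fold higher in contact, and the fitted log2 difference was 0.46 ± 0.09 (SE). Slc25a10 (ENSMUSG00000025792, chromosome 11, 120491840 to 120499187, plus strand), the dicarboxylate carrier gene, stood at 20.45, 18.38 and 18.76 FPKM in contact libraries, against 22.26, 22.06 and 20.17 FPKM in transwell libraries. Contact replicate 1 was above transwell replicate 3, so the groups overlapped, and the fitted log2 difference was -0.28 ± 0.08 (SE). With library totals alone the difference was 0.57 for Slc25a1 and -0.16 for Slc25a10. Within a library, where no scaling enters, Slc25a1 was 2.91 ± 0.172 times the level of Slc25a10 in contact and 1.75 ± 0.147 times in transwell libraries, with no overlap between the groups.

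The succinate dehydrogenase genes Sdha and Sdhb were lower in contact, Sdhb by the larger fitted difference. Sdha (ENSMUSG00000021577, chromosome 13, 74322254 to 74350280, minus strand) stood at 60.39, 59.94 and 60.82 FPKM in contact libraries, against 66.16, 63.56 and 61.29 FPKM in transwell libraries. The groups did not overlap, but the gap between contact replicate 3 and transwell replicate 3 was under 0.5 FPKM, and the fitted log2 difference was -0.19 ± 0.07 (SE). When libraries were scaled by their totals alone, the Sdha difference was -0.08. Sdhb (ENSMUSG00000009863, chromosome 4, 140961203 to 140979193, plus strand) stood at 53.11, 55.74 and 52.67 FPKM in contact libraries, against 67.6, 60.48 and 62.94 FPKM in transwell libraries. All 3 contact libraries were below all 3 transwell libraries, and the fitted log2 difference was -0.36 ± 0.07 (SE), or -0.24 with library totals alone. Sdhb, alone of the 6 tested members, ranked the contact libraries as the epithelial markers did, highest in replicate 2 and lowest in replicate 3, an order that 25% of all tested genes shared.

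The subunit genes shifted unequally against each other. The summed level of Sdha, Sdhb and the membrane anchor genes Sdhc and Sdhd was 313 ± 7.15 FPKM in contact and 315 ± 22.3 FPKM in transwell libraries. Sdhb made up 16.8%, 17.5% and 17.3% of that sum in contact libraries, against 19.9%, 20.3% and 20.4% in transwell libraries. Sdhd made up 48.8 ± 0.917% in contact and 43.4 ± 1.02% in transwell libraries, and Sdhc 14.7 ± 0.371% and 16.1 ± 0.404% in the same order. For these 3 genes the shares did not overlap between the groups. FPKM ranges did not overlap for 51.2% of all tested genes, and no such background was computed for shares. The shares are parts of 1 sum, so they do not move independently of each other. The fitted log2 difference of Sdhd itself was 0.042 ± 0.085 (SE), and Sdhd was not called. The share of Sdha overlapped, at 19.3 ± 0.576% in contact and 20.2 ± 1% in transwell libraries.

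**Figure D2:**
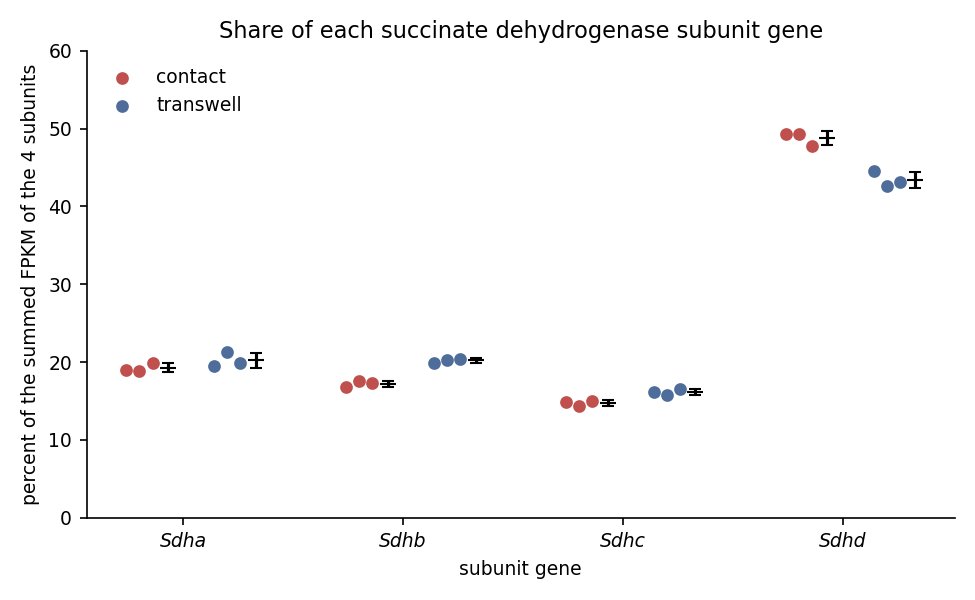
Share of each succinate dehydrogenase subunit gene in the summed FPKM of the 4 genes (vertical axis, percent), for the 3 contact libraries (red) and the 3 transwell libraries (blue), with mean and SD in black. The Sdhb points lie between 16.8% and 17.5% in contact and between 19.9% and 20.4% in transwell libraries, and the Sdhd points are higher in contact.

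Sucnr1 (ENSMUSG00000027762, chromosome 3, 60081869 to 60087566, plus strand) had 0 counts in each of the 6 libraries. A count of 0 allows a level of up to 0.101 FPKM in the shallowest library, at 3 counts, which covers counting error only. Transcripts of the succinate receptor were thus not detectable at this depth under either condition, and the gene could not be tested.

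By level per length, the order of the 7 genes in contact libraries was Acod1, Sdha, Slc25a1, Sdhb, Slc25a10, Slc13a3 and Sucnr1. The ranges over libraries overlapped between Sdha and Slc25a1 and between Slc25a1 and Sdhb, and all other neighbours lay apart. In transwell libraries the order was Acod1, Slc13a3, Sdhb, Sdha, Slc25a1, Slc25a10 and Sucnr1, with overlapping ranges between Slc13a3 and Sdhb and between Sdhb and Sdha. Slc13a3 was thus level with the succinate dehydrogenase genes in transwell libraries and below both mitochondrial carriers in contact libraries. In the fit across all genes, 5 of the 6 tested members were called at a Benjamini-Hochberg adjusted p under 0.05 (edgeR's quasi-likelihood test), where 37.5% of all 14113 tested genes were. FPKM ranges did not overlap for 4 of the 6, where 51.2% of all tested genes showed the same. Since the members were chosen on this contrast, nothing is read from these counts.

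By a distance between profiles over the 6 libraries, the genes most like Slc13a3 were Cxcl5, Fcrls, Ccl2, Cxcl3 and Ifit3. Compared were 9945 other tested genes with a mean of at least 1 FPKM and no Gm number, Rik clone or accession as symbol. The distance is Euclidean, on log2(FPKM + 1) centred on each gene's mean. It was 0.83 for Cxcl5, a neutrophil attractant, which stood at 1.6 ± 0.536 FPKM in contact and 30.2 ± 5.72 FPKM in transwell libraries. It was 0.93 for Fcrls, an Fc receptor-like gene of mononuclear phagocytes, at 3.65 ± 0.431 FPKM in contact and 29.2 ± 3.57 FPKM in transwell libraries. The chemokine genes Ccl2 and Cxcl3 (distances 1.33 and 1.39) and the interferon-induced Ifit3 (1.41) differed by less than Slc13a3 did, with fitted log2 differences of -2.64 ± 0.13, -2.63 ± 0.15 and -2.51 ± 0.10 (SE). The genes most like Acod1 were Traf3ip2, Maskbp3, Xlr4b, Arhgap31 and Cklf, at distances of 0.10 to 0.11. Their fitted log2 differences were -0.13 to -0.05. Their group means lay between 1.08 and 8.5 FPKM, far below Acod1 at 183 FPKM in contact and 178 FPKM in transwell libraries. Adding 1 FPKM before the logarithm shrinks differences at such low levels. Nearness was measured on these same libraries, so the differences of both sets of neighbours follow from how they were picked.

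**Figure D3:**
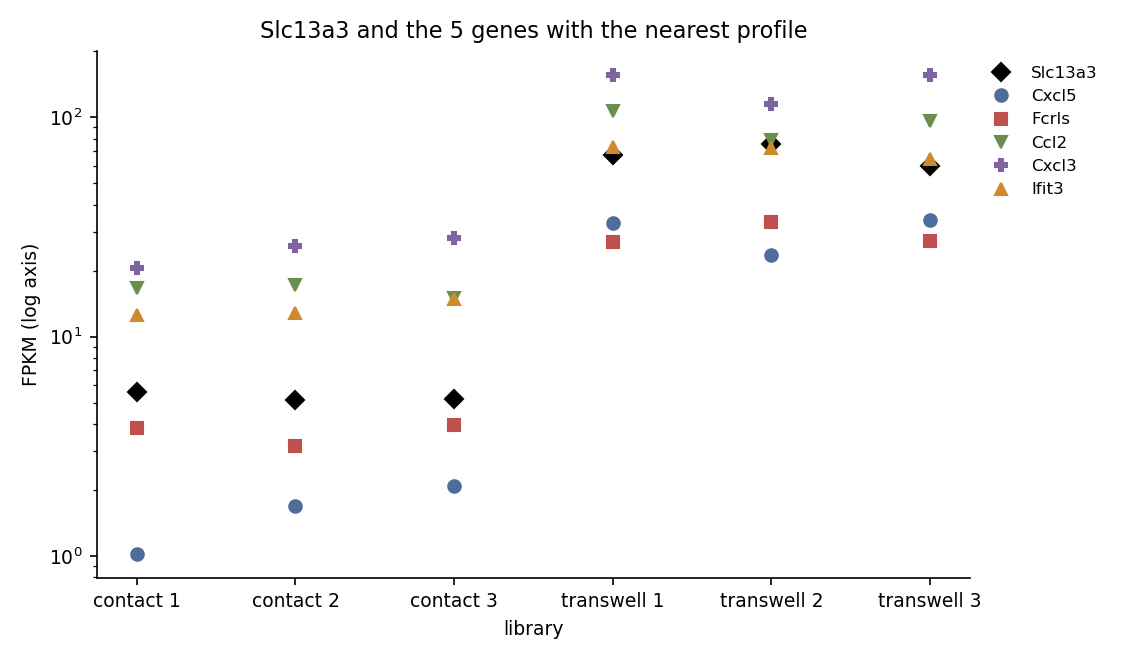
FPKM (logarithmic vertical axis) of Slc13a3 and of the 5 genes with the nearest profile in each of the 3 contact libraries (left) and the 3 transwell libraries (right). Every gene is lower in all contact libraries than in all transwell libraries, with Slc13a3 between 5.13 and 5.57 FPKM and between 59.76 and 75.9 FPKM.

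The other genes of the pathway were read from 7 lists, chosen like the members with earlier results of these data known. Their counts and p-values are therefore a description. The lists held 73 genes, of which 67 passed the filter. In edgeR's quasi-likelihood test across all genes, 15 rose and 23 fell in contact, where 21.4% of all tested genes rose and 16.1% fell, and the median log2 difference over the 67 was -0.05 against 0.025 over all tested genes. The split moved with the scaling, which shifted all genes together. With library totals alone the median of all genes was 0.14, and 22 of the pathway genes rose and 14 fell. Of all 14113 tested genes, 3945 rose and 1450 fell in that setting. In limma 21 pathway genes rose and 15 fell on log2(FPKM + 1), and 19 rose and 11 fell on log2(FPKM + 0.1). Over all tested genes 3708 rose and 1435 fell in the former, and 3623 rose and 1269 fell in the latter. Of the 15 that rose, Acaca, Got2, Slc16a1, Slc16a3, Suclg2 and Vhl ranked the contact libraries as the epithelial markers did, or 40% of them, against 43.6% of all genes called higher. Slc16a1 was no longer called after quantile normalization, or when contact replicate 2, transwell replicate 2 or transwell replicate 3 was omitted. The part of epithelial RNA in these rises was not tested.

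TCA cycle enzymes fell in 10 of 15 cases and rose in 1, with a median log2 difference of -0.31. Of all tested genes, 16.1% fell and 21.4% rose. Pcx, which refills the cycle with oxaloacetate from pyruvate, fell the most, to 0.857 ± 0.0603 FPKM in contact, against 2.16 ± 0.161 FPKM in transwell libraries (log2 difference -1.45 ± 0.15, edgeR adjusted p = 4.8e-05). Idh3b, a subunit of the mitochondrial isocitrate dehydrogenase (-0.47 ± 0.07, 19.7 ± 0.26 against 25.2 ± 0.65 FPKM), and Fh1, the fumarase that acts after succinate dehydrogenase (-0.42 ± 0.08, 8.7 ± 0.462 against 10.8 ± 0.223 FPKM), fell by less. Suclg2, a subunit of the GTP-specific enzyme that forms succinate from its coenzyme A ester, was the gene that rose, to 6.09 ± 0.338 FPKM in contact, against 4 ± 0.202 FPKM in transwell libraries (0.49 ± 0.09, edgeR adjusted p = 0.0017). With library totals alone 6 TCA cycle genes fell and 2 rose, and in limma on log2(FPKM + 0.1) 4 fell and 1 rose.

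Of the other genes of succinate dehydrogenase and its assembly, Sdhc fell (-0.26 ± 0.08, edgeR adjusted p = 0.03) and the other 5 were not called. By the same test 37.5% of all tested genes were called. Sdhd stood at a log2 difference of 0.04 ± 0.09. The Sdhc call ended under 11 of 17 alternatives, with library totals alone among them (-0.14).

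Of 7 genes that use citrate in the cytosol, 3 fell and 1 rose, where 16.1% of all tested genes fell and 21.4% rose. With library totals alone 3 fell and 2 rose. Acss2, which makes acetyl coenzyme A from acetate, fell to 1.68 ± 0.173 FPKM in contact, against 3.07 ± 0.0721 FPKM in transwell libraries (-0.99 ± 0.10, edgeR adjusted p = 4.9e-05). Idh1, the cytosolic isocitrate dehydrogenase, fell to 80 ± 1.19 FPKM in contact, against 112.6 ± 1.97 FPKM in transwell libraries (-0.61 ± 0.06, edgeR adjusted p = 5.4e-05), and Me1, the malic enzyme, fell as well (-0.41 ± 0.10), a call that ended in limma on log2(FPKM + 0.1) (-0.29). Acaca, the acetyl coenzyme A carboxylase, rose (0.38 ± 0.08), a call that ended after quantile normalization (0.10). Acly, the citrate lyase that acts on citrate exported by the Slc25a1 carrier, stood at 0.17 ± 0.06 and was not called.

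Of 14 other carriers, 9 were tested, 3 fell and 2 rose, where 16.1% of all tested genes fell and 21.4% rose. Slc25a12, an aspartate-glutamate carrier, fell to 4.91 ± 0.315 FPKM in contact, against 7.99 ± 0.359 FPKM in transwell libraries (-0.82 ± 0.09, edgeR adjusted p = 7.6e-05). Slc25a22, a glutamate carrier (-0.73 ± 0.08), and Mpc2, a subunit of the mitochondrial pyruvate carrier (-0.44 ± 0.10), fell too. Slc16a3, a lactate exporter, rose to 48.5 ± 0.418 FPKM in contact, against 33.6 ± 1.9 FPKM in transwell libraries (0.41 ± 0.07, edgeR adjusted p = 0.0013). Slc25a21, a carrier of longer dicarboxylates, was too low to be tested, with 27 counts in contact and 0 counts in transwell libraries. Of the 9, library totals alone called 4 higher and 3 lower.

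**Figure D4:**
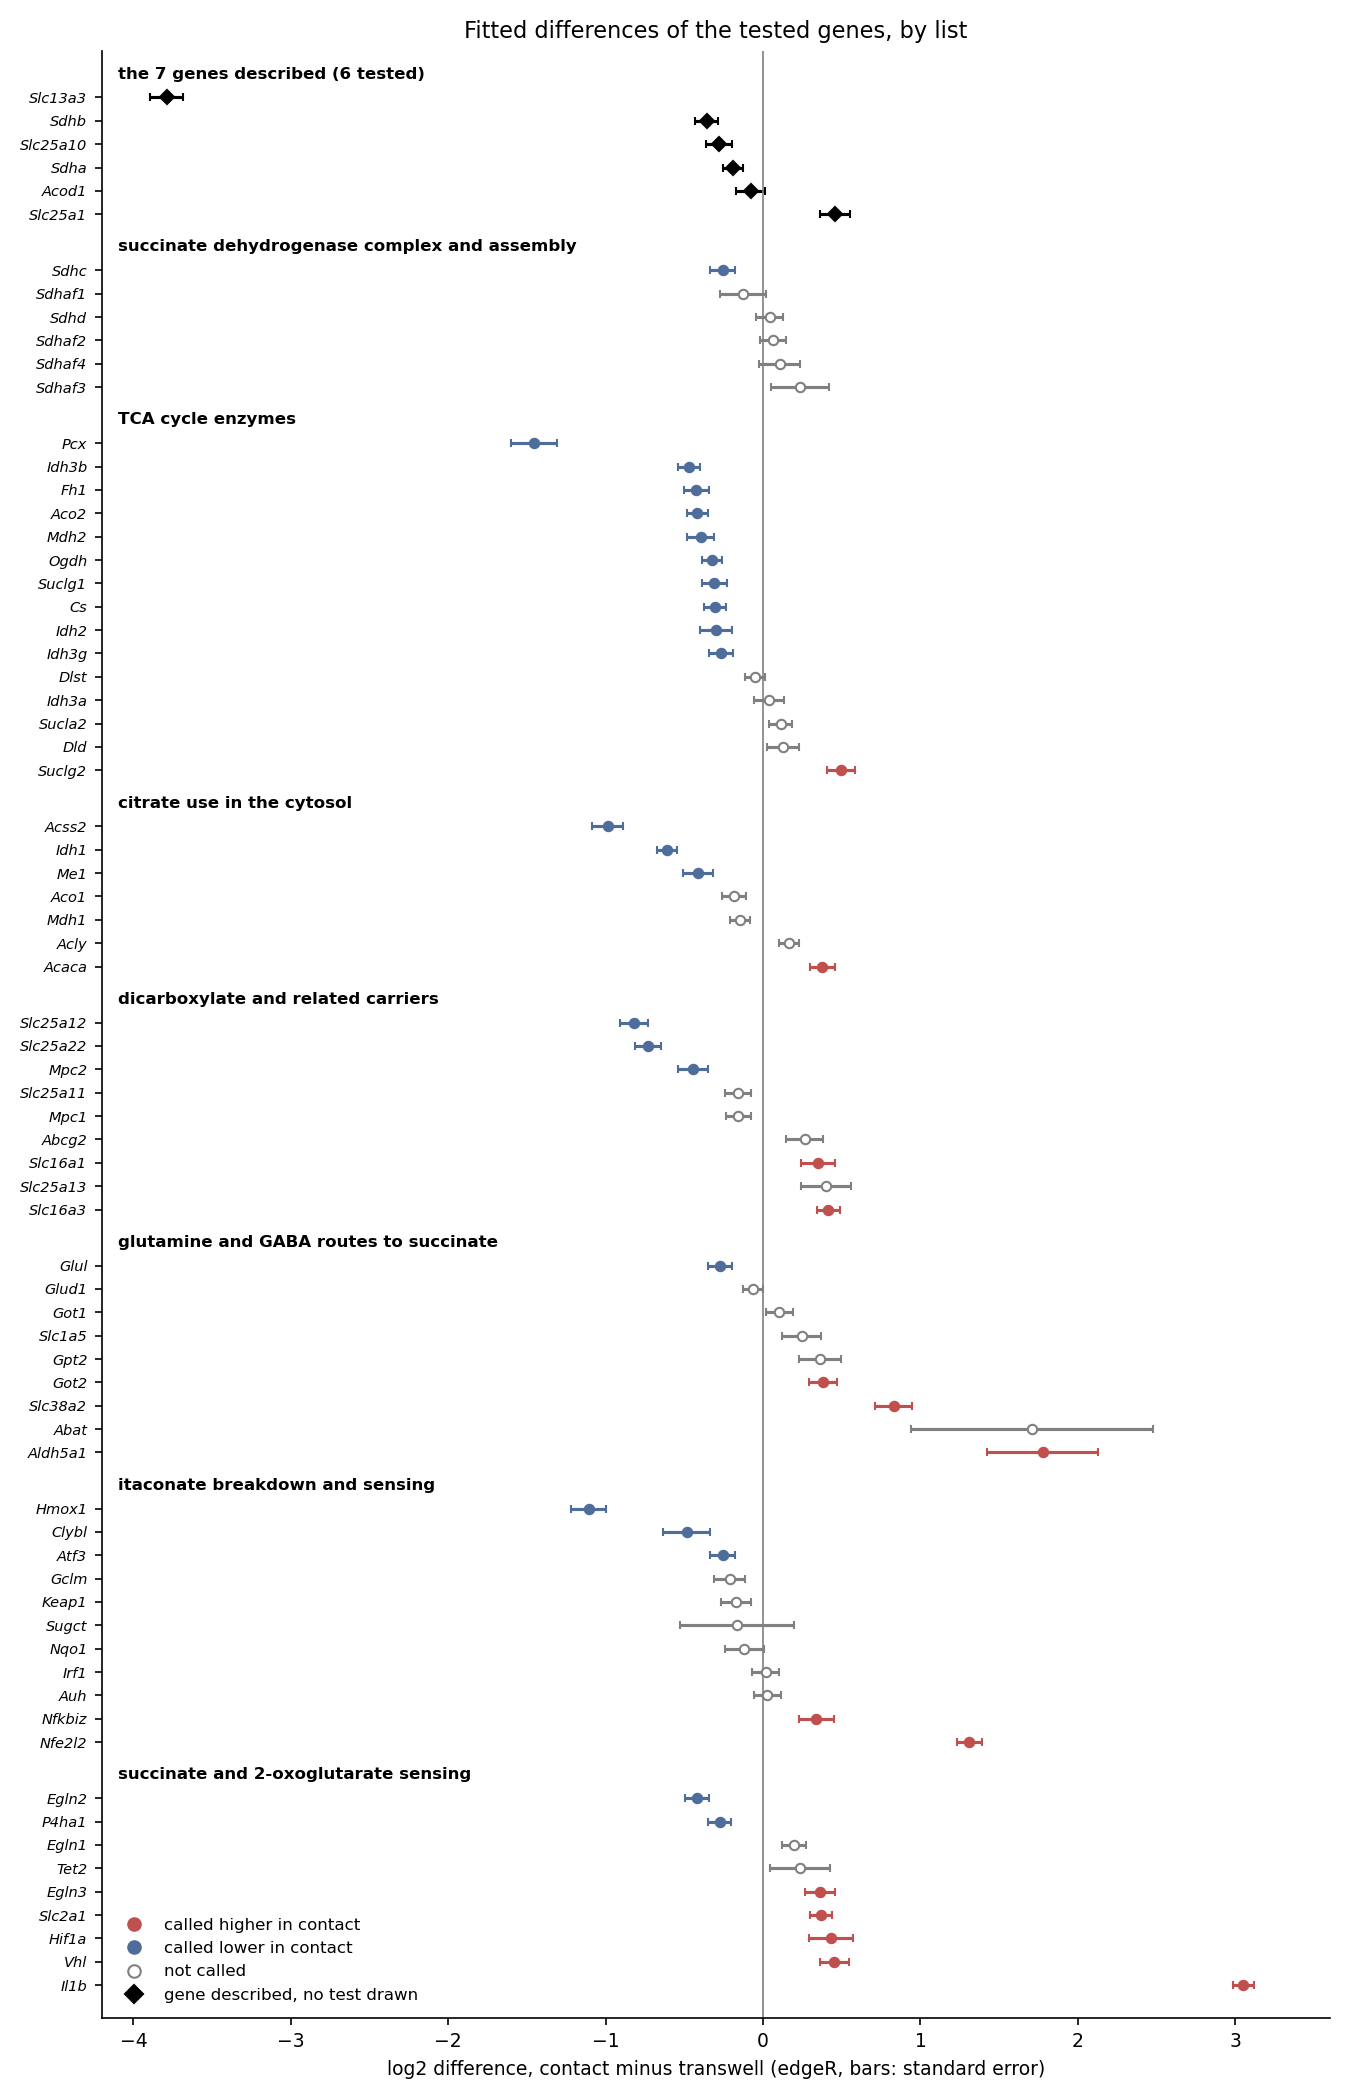
Fitted log2 difference, contact minus transwell, with its standard error (horizontal axis) for the 6 tested genes described here (black diamonds, no test drawn) and 66 of the 67 tested genes of the 7 pathway lists (rows), filled red where called higher, blue where called lower and open where not called. Slc13a3 at -3.79 lies below every other gene drawn, Il1b at 3.05 lies above, and TCA cycle enzymes lie mostly between -0.5 and 0.

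Genes on the glutamine and GABA routes to succinate rose in 4 of 10 cases and fell in 1, where 21.4% of all tested genes rose and 16.1% fell. With library totals alone 6 of the 10 rose and 0 fell, where 3945 of all 14113 tested genes rose and 1450 fell. Slc38a2, a glutamine carrier, rose to 14.9 ± 1.42 FPKM in contact, against 7.77 ± 1.24 FPKM in transwell libraries (0.83 ± 0.12, edgeR adjusted p = 4.0e-04). Got2, the mitochondrial aspartate aminotransferase, rose by less (0.38 ± 0.09). Aldh5a1, which makes succinate from its semialdehyde, had only 93 counts in contact and 21 counts in transwell libraries and rose (1.78 ± 0.35, edgeR adjusted p = 0.0033), a call that ended after quantile normalization. Its levels of 0.25 ± 0.05 FPKM in contact and 0.0667 ± 0.0115 FPKM in transwell libraries lay close to the floor of 0.0292 FPKM.

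Of 11 tested genes of itaconate breakdown and sensing, 2 rose and 3 fell, where 21.4% of all tested genes rose and 16.1% fell. With library totals alone 2 rose and 1 fell. Nfe2l2, the gene of NRF2, which itaconate activates by modifying its inhibitor KEAP1, rose to 136 ± 5.75 FPKM in contact, against 50.7 ± 4.6 FPKM in transwell libraries (1.31 ± 0.08, edgeR adjusted p = 2.8e-06). The NRF2 target Hmox1, heme oxygenase, fell to 629 ± 39.7 FPKM in contact, against 1250 ± 178 FPKM in transwell libraries (-1.11 ± 0.11, edgeR adjusted p = 4.8e-05), and Nqo1 (-0.12 ± 0.12) and Gclm (-0.21 ± 0.10), also NRF2 targets, were not called. Clybl, a mitochondrial enzyme that splits the itaconate product citramalyl coenzyme A, fell (-0.48 ± 0.15, edgeR adjusted p = 0.029). Its call ended without contact replicate 1 (-0.39) or 2 (-0.52) or transwell replicate 1 (-0.47) or 3 (-0.43), with library totals alone (-0.37) and in limma on log2(FPKM + 0.1) (-0.36). Nfkbiz, whose protein is an itaconate-sensitive inducer of secondary cytokine genes, rose (0.34 ± 0.11, edgeR adjusted p = 0.036), and that call ended without any single library other than transwell replicate 2 (0.25 to 0.38). Irf1, a transcription factor that induces Acod1, stood at 0.02 ± 0.09. Oxgr1, a receptor reported to sense itaconate, had 0 counts in every library, with a floor of 0.0442 FPKM.

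Genes that sense succinate and 2-oxoglutarate or respond to them rose in 5 of 9 cases and fell in 2. Over all tested genes 21.4% rose and 16.1% fell. With library totals alone 6 of the 9 rose and 1 fell, where 3945 of all 14113 tested genes rose and 1450 fell. Il1b, a cytokine gene that succinate raises through HIF-1 alpha, stood at 1408 ± 39.3 FPKM in contact and 156.9 ± 0.71 FPKM in transwell libraries (3.05 ± 0.07, edgeR adjusted p = 3.0e-08). Hif1a itself rose (0.43 ± 0.14, edgeR adjusted p = 0.036), a call that ended without contact replicate 2 (0.47) or 3 (0.32) or transwell replicate 1 (0.30) or 3 (0.45), and in limma on log2(FPKM + 0.1) (0.56). Vhl, which marks HIF-1 alpha for degradation, rose to 17.3 ± 1.47 FPKM in contact, against 11.7 ± 0.539 FPKM in transwell libraries (0.45 ± 0.09, edgeR adjusted p = 0.0035). Of the prolyl hydroxylases that succinate inhibits, Egln2 fell (-0.42 ± 0.08, edgeR adjusted p = 0.002), Egln3 rose (0.36 ± 0.09, edgeR adjusted p = 0.014) and Egln1 was not called (0.19 ± 0.08). The Egln3 call ended without transwell replicate 2 or 3 (differences over all alternatives 0.26 to 0.48).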

How the data were processed

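Sorted macrophages were profiled in 3 contact and 3 transwell libraries, with groups and replicate numbers from the sample titles. The authors deposited raw read counts and FPKM per Ensembl gene, per the file headers, and 99.93% of FPKM values with a count above 100 lay within 1% of the value computed from count, exonic length and library total. GRCm38 and mm10 are the builds in the submitters' processing notes. The sources used here do not give the aligner, counter, annotation or strand setting, so overlapping or near-identical genes may share reads. Of 52073 gene IDs shared with GENCODE M21 (GRCm38), 1472 had the same start and end, so each printed position is that of the gene ID in GENCODE M21.

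Genes were filtered with filterByExpr (minimum count 10), libraries scaled by TMM, and contact compared with transwell by the two-sided quasi-likelihood test of edgeR 4.0.16 (in R 4.3.3, with limma 3.58.1), adjusted by Benjamini-Hochberg over 14113 genes, with a threshold of 0.05. The SE is the absolute log2 difference over the square root of the F statistic. Alternatives were other scalings and filters, DESeq2 1.42.0, limma on FPKM, a replicate block and each library left out. Members and lists were chosen with earlier results of these data known. Named are the 7 members, up to 4 called genes a list by size, genes at 0, and 5 profile neighbours each of Slc13a3 and Acod1. Egln1, Egln3, Slc16a1, Sdhd, Acly, Nqo1, Gclm, Irf1, Pecam1, Cd4, the SLC13 genes and the neutrophil markers were named after their values were seen. Some genes are not reported here, although the counts over lists include them. Protein sequences were not used here. Figures were drawn with matplotlib 3.10.9.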

Additional observations from a re-analysis of the deposited data

How the results depend on the processing

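Over 17 alternatives the log2 difference of Slc13a3 lay between -3.88 and -3.44, that of Slc25a1 between 0.37 and 0.57, Slc25a10 between -0.33 and -0.16, Sdha between -0.23 and -0.075 and Sdhb between -0.43 and -0.24, none with a change of sign, while Acod1 ranged from -0.19 to 0.04. The count of called genes was 5286, against 2674 when only genes with a mean of at least 5 FPKM were tested, where fewer genes enter. Leaving out a library gave 4042 to 5310 called genes and 28 to 39 called pathway genes, against 38 with all libraries. Called genes were 3016 higher and 2270 lower, against 3945 and 1450 with library totals alone, 3708 and 1435 in limma on log2(FPKM + 1), 3623 and 1269 on log2(FPKM + 0.1) and 2338 and 3352 after quantile normalization. Of the 24 pathway genes named by rule, 17 kept their call and direction under every alternative that gave a value, and none changed direction. Slc16a1 and Egln3, named outside the rule, lost their calls under 4 and 2 alternatives. Genes below 5 FPKM gave no value under that filter. With the replicate number as a block 5124 genes and 38 pathway genes were called. Same-numbered libraries did not deviate together (r = -0.0828, -0.445 and 0.0557), and none correlated best with its own number. Deviations from the mean of only 3 libraries constrain each other, so these values cannot decide whether the numbers pair the libraries. Depth limits Sucnr1, Oxgr1 and the other SLC13 genes.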

Other observations

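Genes beside Slc13a3 on the chromosome were looked up after the values were seen. Within 300 kb of Slc13a3, 5 of 9 protein-coding genes were tested and 4 were called by edgeR, where 37.5% of all tested genes were. The nearest, Ocstamp, a gene that acts in the fusion of cells into osteoclasts, lay at a gap of 4.62 kb. It rose to 0.553 ± 0.153 FPKM in contact, against 0.0633 ± 0.0404 FPKM in transwell libraries (log2 difference 2.97 ± 0.49, SE, edgeR adjusted p = 0.0012). That call held under all 16 alternatives that gave a value, but both levels were low and the difference ranged from 0.31 to 3.48. Trp53rka, at 16.9 kb on the other side, stood at 7.78 ± 0.327 FPKM in contact and 8.14 ± 0.198 FPKM in transwell libraries (-0.18 ± 0.09, edgeR adjusted p = 0.15). Slc35c2 (-0.64 ± 0.11) and Elmo2 (-0.47 ± 0.08) fell. Zfp334, at 0.19 ± 0.07 FPKM in contact and 0.0233 ± 0.0321 FPKM in transwell libraries, rose (2.96 ± 0.74, edgeR adjusted p = 0.011), a call that ended without contact replicate 2 and after quantile normalization.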
